A study of Mus musculus with 9 samples.

Results

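Chemokines and their receptors were read from microarrays of primary mouse osteoblasts, the bone-forming cells. The cells came from the calvaria of 7 to 10 day old C57BL/6J animals. The genes were those whose symbol is Ccl, Cxcl, Ccr or Cxcr with a number and an optional letter, plus Cx3cl1, Cx3cr1 and Ackr3, and 50 of the 22180 genes with a transcript cluster of their own met that rule. A transcript cluster is the group of probes that reads one transcript region. A gene with several clusters was read from the brightest one, which applied to Ccl27a alone. There were 32 CC or CXC ligands, the CX3C ligand Cx3cl1, 15 CC or CXC receptors, the CX3C receptor Cx3cr1 and the atypical receptor Ackr3.

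Cells at passage 2 were induced to differentiate from day 3, held without serum for 24 h from day 10, and then exposed for 4 h to 1 of 3 treatments, with 3 arrays each. The first group received 100 nM hPTH(1-34), the active amino-terminal fragment of human parathyroid hormone. The second received 1 µM of the bovine fragment bPTH(7-34), an amide with D-tryptophan at position 12 and tyrosine at position 34, which lacks the first residues of the hormone. The third received vehicle. The hormone's receptor Pth1r raises cAMP when hPTH(1-34) binds, and bPTH(7-34) is known as an antagonist of that response. Cells were prepared separately for each replicate, and whether one preparation supplied all 3 treatments is not stated in the sources used here. With 3 arrays per group, p-values cover only the spread between these preparations.

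The values are log2 RMA levels as deposited, in which 1 unit is a doubling of the signal. Array medians lay between 1.67 and 1.76. A level of 1.69 served as the background limit: in vehicle cells about 95% of 1105 olfactory receptor genes, which work in the nose and stand in for silent genes, had a mean at or under it. Treatment was checked with genes known to respond to the hormone in osteoblasts. Nr4a2, which encodes a nuclear receptor, read 5.85, 6.45 and 6.31 in hPTH(1-34) cells, 4.13, 4.58 and 4.06 in bPTH(7-34) cells and 4.72, 4.15 and 4.31 in vehicle cells, and rose by 1.81 with hPTH(1-34) against vehicle (limma adjusted p = 0.0149). Rgs2, a brake on G protein signalling, rose by 1.36 (adjusted p = 0.0377) and Tnfsf11, the osteoclast-inducing ligand RANKL, by 2.57 (adjusted p = 0.0468). Array 3 of hPTH(1-34) and array 3 of bPTH(7-34) stood apart, with low readings of most chemokine ligands and of many macrophage markers. Estimates that moved by over 1.5 times or turned direction in a fit without both are given with that value for the genes described in the comparisons. Because the 2 arrays were picked for low ligand readings, higher ligand estimates against vehicle without them follow from that choice.

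Chemokines are small secreted proteins that guide the movement of cells. Their classes are named after the spacing of the first cysteines, and most act on receptors that couple to inhibitory G proteins. In bone, osteoblasts and stromal cells make Cxcl12, which binds Cxcr4 and holds blood-forming stem cells in the marrow, and Ccl2, which draws monocytes, the precursors of osteoclasts. Ackr3 is an atypical receptor that takes up Cxcl12 and Cxcl11 and signals without the usual G protein pathway. In rat bone Ccl2 is known as a gene induced by parathyroid hormone. Many inflammatory chemokine genes have binding sites of the transcription factor NF-kB close to their start.

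Promoters are shown for the genes that the comparisons turned on, Cxcl14 and Ackr3, and for 4 neutrophil or T cell attractants that hold a match to the NF-kB consensus. They are the 160 bases before the gene's start in RefSeq's annotation of mouse build GRCm38.p6, 5′ to 3′ on the gene's strand. Capitals mark matches to the NF-kB consensus on either strand, which may overlap.
Cxcl14, chr13:56296552-56296711, minus strand: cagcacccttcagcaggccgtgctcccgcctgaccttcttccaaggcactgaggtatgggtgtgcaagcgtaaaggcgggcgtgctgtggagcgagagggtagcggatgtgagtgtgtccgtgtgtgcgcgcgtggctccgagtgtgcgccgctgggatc
Ackr3, chr1:90203820-90203979, plus strand: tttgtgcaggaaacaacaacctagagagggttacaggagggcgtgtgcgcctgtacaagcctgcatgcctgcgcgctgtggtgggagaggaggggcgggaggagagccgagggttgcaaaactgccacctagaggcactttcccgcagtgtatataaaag
Cxcl1, chr5:90891085-90891244, plus strand: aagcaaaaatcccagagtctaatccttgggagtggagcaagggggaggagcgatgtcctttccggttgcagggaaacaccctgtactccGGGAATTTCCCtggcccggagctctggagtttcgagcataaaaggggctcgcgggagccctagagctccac
Cxcl2, chr5:90903739-90903898, plus strand: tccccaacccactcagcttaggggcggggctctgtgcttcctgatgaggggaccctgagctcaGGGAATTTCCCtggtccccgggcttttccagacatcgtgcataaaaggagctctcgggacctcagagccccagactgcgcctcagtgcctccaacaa
Cxcl3, chr5:90785941-90786100, plus strand: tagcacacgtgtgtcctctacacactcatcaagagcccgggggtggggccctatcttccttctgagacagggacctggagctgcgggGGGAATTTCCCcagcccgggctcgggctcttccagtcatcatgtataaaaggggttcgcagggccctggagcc
Cxcl10, chr5:92348890-92349049, minus strand: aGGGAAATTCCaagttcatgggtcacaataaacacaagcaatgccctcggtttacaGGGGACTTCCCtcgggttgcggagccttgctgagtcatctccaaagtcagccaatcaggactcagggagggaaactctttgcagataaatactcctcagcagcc

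RefSeq promoters were matched for 36 of the 50 genes. The search covered 250 bases upstream, on both strands, for the cAMP response element core TGACG, its whole palindrome TGACGTCA and the NF-kB consensus. Of the 32851 promoters in the table, 17.8% held TGACG, 1.55% held TGACGTCA and 7.25% held the NF-kB consensus. Cxcl14 and Ackr3 held none of the 3 in this window. The NF-kB consensus was found in Ccl9, Cxcl1, Cxcl2, Cxcl3 and Cxcl10, which makes 5 of the 13 promoters (38.5%) of genes with a mean level of at least 3.5, a boundary set after the values were seen. The other 6 genes of that level, Ccl2, Ccl5, Ccl7, Ccl11, Cxcl5 and Cxcl16, were not searched. Over all chemokine genes above the background limit, 6 of 27 promoters (22.2%) held it, with Ccl20 added. Promoters of Ccl1, Ccr1, Ccr3 and Ccr6, genes at or under that limit, also held the NF-kB consensus, so it was not confined to genes above the limit. In Cxcl1, Cxcl2 and Cxcl3 the matches began 71, 97 and 73 bases before the start and overlapped with a second match 1 base on. TGACG was found in Cxcl1 and Cxcl12, 2 of the same 13 promoters (15.4%), and TGACGTCA in 0 of them. A match is a description of letters and shows no binding, and a window without one says only that these letters are not in it.

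The genes fell into 3 sets by level. Means over the 9 arrays were 3.84 to 11.89 for 19 genes, 1.70 to 2.66 for 16, and 0.914 to 1.67 for the 15 at or under the background limit. The boundary of 3.5 was placed in the gap between 2.66 and 3.84 after the values were seen. Just above the background limit lay Cxcl11, with a mean of 1.70, and just under it Ccl24, with 1.67. At the 99th percentile of the olfactory receptor genes, 2.19, 26 genes instead of 35 lay above. Of the 19 CC ligands 14 lay above the limit, and of the 13 CXC ligands 12. Among receptors, 1 of 9 CC receptors, Ccr7, and 5 of 6 CXC receptors lay above it, with none of these reaching 3.5. The 15 genes at or under the limit were the ligands Ccl1, Ccl6, Ccl22, Ccl24, Ccl26 and Cxcl15 and the receptors Ccr1, Ccr2, Ccr3, Ccr4, Ccr6, Ccr8, Ccr9, Ccr10 and Cxcr6. Their arrays read between 0.74 and 2.08. Receptors that blood cells use for the monocyte and T cell attractants below, Ccr1, Ccr2 and Ccr4 among them, were thus within the range of genes taken as unexpressed.

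**Figure D1:**
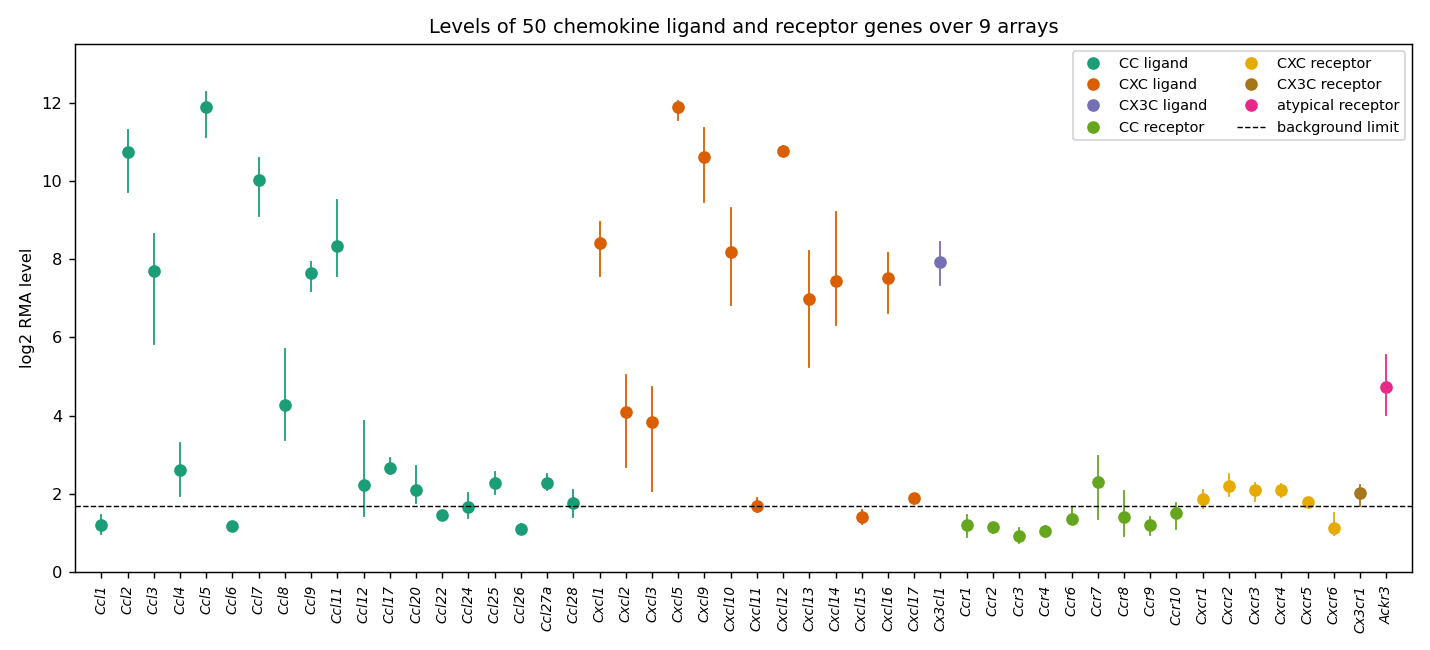
Mean log2 RMA level (points) and the lowest to highest of the 9 arrays (lines) for 50 chemokine ligand and receptor genes, grouped by role, with the background limit of 1.69 dashed. Ligands span the whole scale, while the CC and CXC receptors lie under a mean of 3.5. Different probes differ in brightness, so heights of different genes are not abundances.

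Cxcl14 was the single gene of the 50 that limma called higher with hPTH(1-34) against vehicle. It encodes a CXC chemokine made by epithelial and stromal cells, whose receptor is still debated. Its level was 8.05, 9.21 and 8.86 in hPTH(1-34) cells, 6.98, 7.13 and 6.32 in bPTH(7-34) cells and 7.08, 6.73 and 6.69 in vehicle cells. Every hPTH(1-34) array lay above every array of the other groups, which overlapped with each other. As group means, hPTH(1-34) cells averaged 8.71 ± 0.59, bPTH(7-34) cells 6.81 ± 0.43 and vehicle cells 6.83 ± 0.21 (SD, n = 3 each). The log2 change against vehicle was 1.87 ± 0.30 (SE, 95% interval 1.20 to 2.55, limma adjusted p = 0.0423), a 3.66-fold higher level. Of all 23521 clusters tested, 0.451% passed the adjusted threshold of 0.05 in this comparison, so 1 called gene of 50 is a count too small to set the chemokines apart. Limma called 0 chemokine genes as lower, where 0.14% of all clusters were, and 0 were lower at an unadjusted p under 0.05, where 3.78% were.

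The call for Cxcl14 depended on single arrays, while its direction did not. A block on array number also ended the call against vehicle, as given in the closing section on processing. Leaving out 1 array at a time gave changes of 1.62 to 2.20 and limma adjusted p of 0.00851 to 0.202, past the threshold in 2 of 9 fits. It was lost without hPTH(1-34) array 2 (adjusted p = 0.169) or 3 (0.188), bPTH(7-34) array 1 (0.0819) or 2 (0.0718), and vehicle array 1 (0.074), 2 (0.202) or 3 (0.196).

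Ackr3, the scavenging receptor of Cxcl12, read 5.56, 5.33 and 5.11 in hPTH(1-34) cells, 4.82, 4.47 and 4.03 in bPTH(7-34) cells and 4.78, 4.29 and 4.18 in vehicle cells. The hPTH(1-34) arrays lay above all arrays of the other groups. The log2 change against vehicle was 0.92 ± 0.22 (SE, 95% interval 0.41 to 1.42, limma adjusted p = 0.177), which does not pass over all clusters in the fit with group as the only term. A block on array number changed this outcome, as given in the closing section on processing.

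Ccr7, the receptor that guides lymphocytes and dendritic cells to lymph nodes, lay near the background limit and read 2.80, 2.98 and 2.42 in hPTH(1-34) cells, 2.43, 2.34 and 2.28 in bPTH(7-34) cells and 2.22, 1.93 and 1.37 in vehicle cells. Its hPTH(1-34) and vehicle arrays did not overlap, but hPTH(1-34) and bPTH(7-34) arrays did. The log2 change with hPTH(1-34) against vehicle was 0.89 ± 0.21 (SE, 95% interval 0.41 to 1.37, limma adjusted p = 0.16). Cx3cr1, the receptor of fractalkine, read 2.06, 2.17 and 2.06 in hPTH(1-34) cells, 2.19, 2.22 and 2.06 in bPTH(7-34) cells and 1.70, 1.69 and 2.06 in vehicle cells. Vehicle array 3 shared the value of several treated arrays, and the change with hPTH(1-34) was 0.28 ± 0.12 (SE, 95% interval 0.02 to 0.54, limma adjusted p = 0.492).

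Cxcl10, an attractant of activated T cells through Cxcr3 that interferon induces, had the lowest estimate against vehicle. Its level was 8.46, 6.82 and 7.30 in hPTH(1-34) cells, 8.47, 9.32 and 7.20 in bPTH(7-34) cells and 8.93, 8.89 and 8.32 in vehicle cells. The hPTH(1-34) and vehicle arrays overlapped at hPTH(1-34) array 1, and the bPTH(7-34) arrays overlapped with both groups. The log2 change with hPTH(1-34) was -1.19 ± 0.54 (SE, 95% interval -2.40 to 0.03, limma adjusted p = 0.546).

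Counted together, 4 of the 50 genes, all higher (Cxcl14, Ackr3, Ccr7 and Cx3cr1), had an unadjusted p under 0.05 for hPTH(1-34) against vehicle, where 5.53% of all clusters were higher at that p. The hPTH(1-34) and vehicle groups did not overlap for 4 genes, higher in each (Cxcl14, Ackr3, Ccr7 and Ccl24, the last under the background limit), where 6.08% of all clusters were. Both shares are small counts, and neither sets the chemokines apart from all clusters. The median log2 change of the 50 genes was 0.00, and that of all clusters was also 0.

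**Figure D2:**
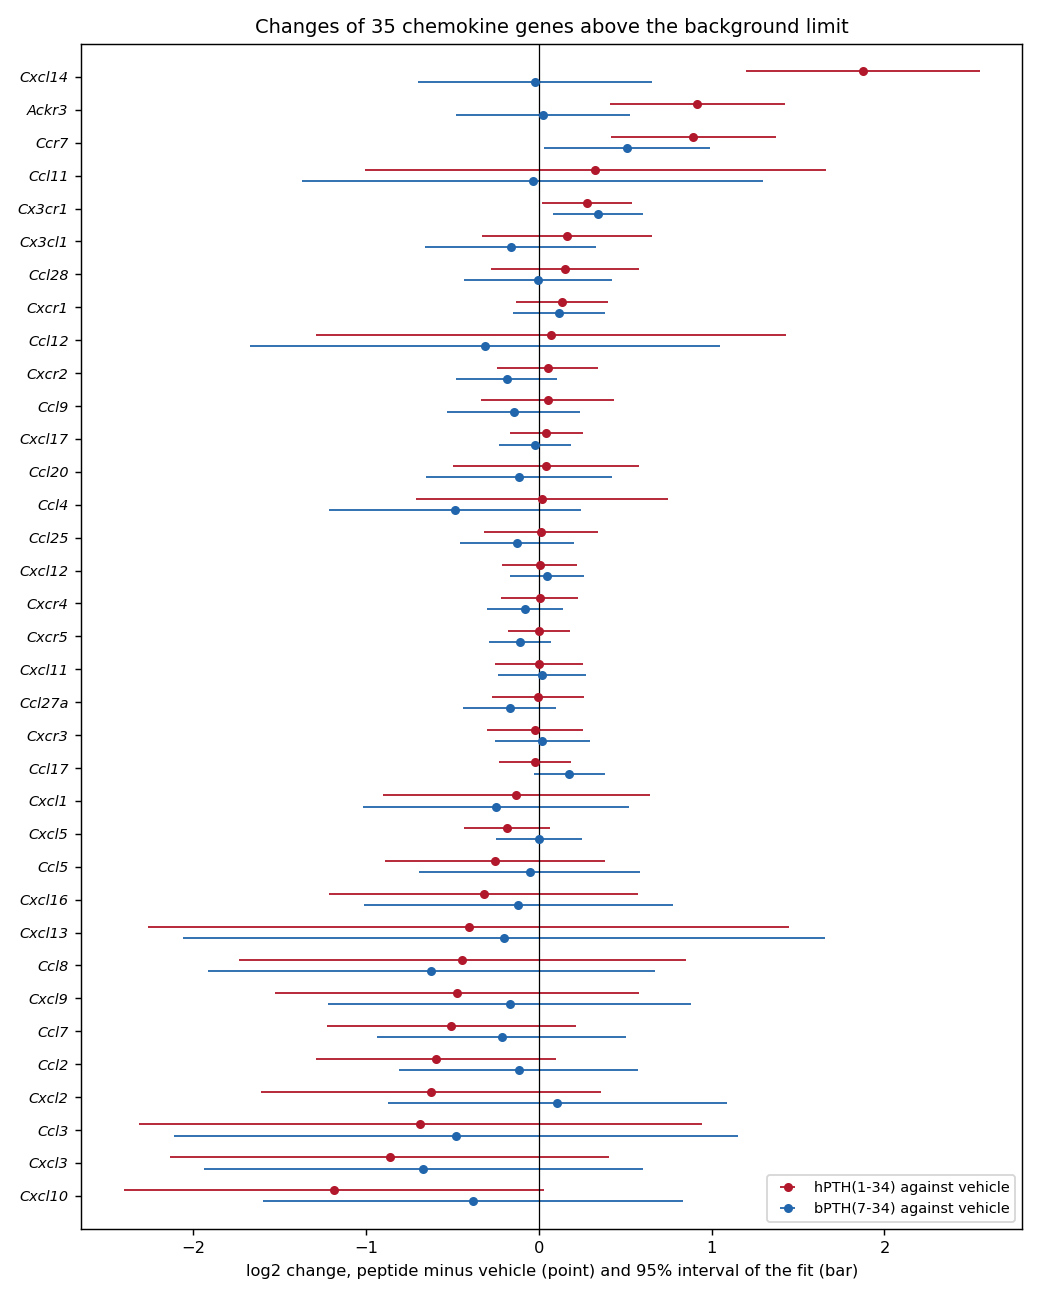
Log2 change of the 35 chemokine genes above the background limit (points) with the 95% interval of the limma fit (bars), for hPTH(1-34) against vehicle (upper of each pair) and bPTH(7-34) against vehicle (lower). For hPTH(1-34) Cxcl14 lies at 1.87 and Ackr3 at 0.92, and for bPTH(7-34) both lie close to 0.

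With bPTH(7-34) against vehicle, 0 of the 50 genes were called by limma, as were 0 of the 23521 clusters (0%). At an unadjusted p under 0.05 there were 2 chemokine genes, both higher, and 1.86% of all clusters were higher at that p. These 2 were Cx3cr1, at 0.34 ± 0.12 (SE, 95% interval 0.08 to 0.60, limma adjusted p = 0.999), and Ccr7, at 0.51 ± 0.21 (SE, 95% interval 0.03 to 0.99, limma adjusted p = 0.999). Among genes above the background limit the next smallest p values, none under 0.05 unadjusted, belonged to Ccl17, at 0.18 ± 0.09 (SE, 95% interval -0.03 to 0.38, limma adjusted p = 0.999), Ccl4, at -0.49 ± 0.32 (SE, 95% interval -1.22 to 0.24, limma adjusted p = 0.999), and Cxcr2, at -0.19 ± 0.13 (SE, 95% interval -0.48 to 0.11, limma adjusted p = 0.999). Leaving out 1 array moved the estimate of Ccr7 to between 0.28 (without vehicle array 3) and 0.70 (without vehicle array 1), and that of Ccl4 to between -0.75 (without bPTH(7-34) array 2) and -0.21 (without vehicle array 1). Without array 3 of both fragments the estimate of Ccl17 was 0.11. Groups did not overlap for 2 genes that were higher with bPTH(7-34), Ccl17 and Ccr7, where 2.9% of all clusters were, and for 1 that was lower, Cxcr5, where 2.39% were. The estimate was -0.02 (95% interval -0.70 to 0.65) for Cxcl14, 0.02 (95% interval -0.48 to 0.53) for Ackr3 and -0.38 (95% interval -1.60 to 0.83) for Cxcl10. Without array 3 of both fragments they were 0.22 for Cxcl14, 0.23 for Ackr3 and 0.18 for Cxcl10, so those of Cxcl14 and Cxcl10 turned direction. The intervals are wide, and similar levels with bPTH(7-34) and vehicle are not shown.

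The fragments were given at different doses, 100 nM hPTH(1-34) and 1 µM bPTH(7-34), so their readouts stand side by side and no difference at matched dose can be had. In the fit of one against the other, Cxcl14 was higher with hPTH(1-34) by 1.90 ± 0.30 (SE, 95% interval 1.22 to 2.57, limma adjusted p = 0.0376), and it was the 1 gene called of 50, where 0.463% of all clusters were called. Leave-one-out estimates of this difference were 1.65 to 2.23, with limma adjusted p of 0.00738 to 0.161. It passed in 1 of 9 fits, the one without hPTH(1-34) array 1, so each of the other arrays ended the call when left out. Ackr3 was next, at 0.89 ± 0.22 (SE, 95% interval 0.39 to 1.40, limma adjusted p = 0.177). Without array 3 of both fragments the estimates were 1.57 for Cxcl14 and 0.80 for Ackr3. Then came Ccl17, at -0.20 ± 0.09 (SE, 95% interval -0.41 to 0.01, limma adjusted p = 0.549), Cxcr2, at 0.24 ± 0.13 (SE, 95% interval -0.06 to 0.53, limma adjusted p = 0.64), and Ccr7, at 0.38 ± 0.21 (SE, 95% interval -0.10 to 0.86, limma adjusted p = 0.644). Without the same arrays these were -0.10 for Ccl17, 0.36 for Cxcr2 and 0.51 for Ccr7. Groups did not overlap for 3 genes that were higher with hPTH(1-34), Cxcl14, Ackr3 and Cxcr5, where 5.99% of all clusters were, and for 1 that was lower, Ccl17, where 5.1% were. The test for any difference among the 3 groups called Cxcl14 alone among the 50 (limma F-test, adjusted p = 0.0469), and 0.383% of all clusters. The comparisons of each fragment with vehicle share the vehicle arrays.

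Ccl2, the monocyte attractant, read 10.94, 10.46 and 9.72 in hPTH(1-34) cells, 10.88, 11.30 and 10.38 in bPTH(7-34) cells and 11.15, 10.87 and 10.89 in vehicle cells. Ccl7, which shares the receptor Ccr2 with Ccl2 and lies beside it on chromosome 11, read 10.42, 9.76 and 9.10 in hPTH(1-34) cells, 10.29, 10.27 and 9.59 in bPTH(7-34) cells and 10.58, 10.09 and 10.13 in vehicle cells. Ccl8, of the same gene cluster, read 5.71, 3.42 and 3.44 in hPTH(1-34) cells, 4.46, 4.20 and 3.37 in bPTH(7-34) cells and 5.11, 4.50 and 4.29 in vehicle cells. In each of the 3 genes the hPTH(1-34) and vehicle arrays overlapped, and in Ccl2 and Ccl7 hPTH(1-34) array 3 was the lowest of all. The log2 estimate of Ccl2 with hPTH(1-34) against vehicle was -0.60 ± 0.31 (SE, 95% interval -1.29 to 0.10, limma adjusted p = 0.61). Without hPTH(1-34) array 3 and bPTH(7-34) array 3 it was -0.27 (limma adjusted p = 0.821).

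Ccl11, or eotaxin, which attracts eosinophils, read 9.50, 8.18 and 8.02 in hPTH(1-34) cells, 9.06, 7.97 and 7.58 in bPTH(7-34) cells and 9.47, 7.63 and 7.62 in vehicle cells. Array 1 was the highest of its group in all 3 groups. Ccl12, a monocyte attractant of the mouse, read 3.87, 1.54 and 1.71 in hPTH(1-34) cells, 2.06, 2.49 and 1.43 in bPTH(7-34) cells and 3.10, 1.74 and 2.07 in vehicle cells, and again array 1 was the highest for hPTH(1-34) and vehicle but not for bPTH(7-34).

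A second group on chromosome 11 holds Ccl5, Ccl9, Ccl6, Ccl3 and Ccl4. Ccl5, an attractant of T cells and monocytes, read 12.20, 11.88 and 11.12 in hPTH(1-34) cells, 12.03, 12.25 and 11.52 in bPTH(7-34) cells and 12.28, 11.90 and 11.78 in vehicle cells. Ccl9, known in the mouse as an attractant of osteoclast precursors and other myeloid cells, read 7.70, 7.75 and 7.72 in hPTH(1-34) cells, 7.18, 7.85 and 7.55 in bPTH(7-34) cells and 7.58, 7.51 and 7.93 in vehicle cells. Ccl9 varied little, by 0.75 over the 9 arrays, while its neighbour Ccl3 varied by 2.82.

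Ccl3, a macrophage inflammatory protein that acts on Ccr1, read 8.63, 7.71 and 5.83 in hPTH(1-34) cells, 7.82, 8.65 and 6.32 in bPTH(7-34) cells and 8.49, 7.75 and 7.99 in vehicle cells. Ccl4, its close relative, read 3.16, 2.96 and 2.21 in hPTH(1-34) cells, 1.95, 2.80 and 2.06 in bPTH(7-34) cells and 3.30, 2.47 and 2.50 in vehicle cells. For Ccl3, arrays 3 of both fragments were the lowest of the 9, well under the others.

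The neutrophil attractants on chromosome 5 act through Cxcr2. Cxcl5 read 11.91, 11.83 and 11.56 in hPTH(1-34) cells, 11.95, 12.04 and 11.87 in bPTH(7-34) cells and 12.04, 11.88 and 11.94 in vehicle cells. Cxcl1 read 8.94, 8.33 and 7.94 in hPTH(1-34) cells, 8.38, 8.90 and 7.58 in bPTH(7-34) cells and 8.84, 8.42 and 8.34 in vehicle cells. All groups overlapped for both, although Cxcl5 varied by only 0.48 over the 9 arrays.

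Cxcl2 read 4.53, 3.67 and 2.70 in hPTH(1-34) cells, 3.92, 5.03 and 4.14 in bPTH(7-34) cells and 4.60, 4.04 and 4.13 in vehicle cells. Cxcl3 read 4.38, 4.01 and 2.08 in hPTH(1-34) cells, 3.77, 4.19 and 3.09 in bPTH(7-34) cells and 4.63, 4.73 and 3.70 in vehicle cells. These 2 share with Cxcl1 the NF-kB match printed above. All 3 had their lowest array among the arrays 3 of the fragments, as had most of the 18 ligands with a mean of at least 3.5. Cxcl10 and Ccl9, which also hold a match, had theirs in hPTH(1-34) array 2 and bPTH(7-34) array 1. Log2 changes with hPTH(1-34) against vehicle were -0.13 (95% interval -0.90 to 0.64) for Cxcl1, -0.62 (95% interval -1.61 to 0.36) for Cxcl2 and -0.86 (95% interval -2.13 to 0.41) for Cxcl3. Without array 3 of both fragments they were 0.10, -0.16 and -0.16 for Cxcl1, Cxcl2 and Cxcl3, so that of Cxcl1 turned direction.

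Cxcl12, the retention factor for blood stem cells, read 10.86, 10.67 and 10.71 in hPTH(1-34) cells, 10.80, 10.83 and 10.74 in bPTH(7-34) cells and 10.88, 10.70 and 10.65 in vehicle cells. It was the steadiest of the 18 ligands with a mean of at least 3.5, with a range of 0.23 over the 9 arrays. Its change with hPTH(1-34) against vehicle was 0.00 (95% interval -0.21 to 0.22), and with bPTH(7-34) 0.05 (95% interval -0.17 to 0.26), with narrow intervals around 0. Without array 3 of both fragments they were 0.02 with hPTH(1-34) and 0.07 with bPTH(7-34). Its signalling receptor Cxcr4 read 2.11, 2.26 and 2.01 in hPTH(1-34) cells, 1.91, 2.11 and 2.11 in bPTH(7-34) cells and 2.11, 2.15 and 2.11 in vehicle cells, close to the background limit.

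Cxcl9, which interferon induces and which acts on Cxcr3 like Cxcl10, read 11.25, 10.30 and 9.47 in hPTH(1-34) cells, 11.02, 11.03 and 9.88 in bPTH(7-34) cells and 11.36, 10.64 and 10.44 in vehicle cells. Cxcl11, of the same kind, read 1.85, 1.69 and 1.55 in hPTH(1-34) cells, 1.56, 1.89 and 1.69 in bPTH(7-34) cells and 1.69, 1.69 and 1.71 in vehicle cells, at the background limit. Their receptor Cxcr3 read 1.81, 2.12 and 2.27 in hPTH(1-34) cells, 2.12, 2.12 and 2.09 in bPTH(7-34) cells and 2.12, 1.97 and 2.18 in vehicle cells. Groups overlapped for all 3 genes.

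Cxcl13, which attracts B cells through Cxcr5, read 8.01, 6.73 and 5.59 in hPTH(1-34) cells, 8.01, 7.68 and 5.25 in bPTH(7-34) cells and 8.20, 7.04 and 6.31 in vehicle cells. Its range of 2.95 was the widest of the 18 ligands, and in each group array 3 was the lowest. Cxcr5 read 1.88, 1.81 and 1.81 in hPTH(1-34) cells, 1.66, 1.73 and 1.78 in bPTH(7-34) cells and 1.81, 1.88 and 1.81 in vehicle cells. Cxcl16, a membrane-bound ligand of Cxcr6 and a scavenger receptor for oxidised lipids, read 8.16, 7.27 and 6.63 in hPTH(1-34) cells, 7.88, 7.84 and 6.94 in bPTH(7-34) cells and 8.16, 7.46 and 7.40 in vehicle cells.

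Cx3cl1, or fractalkine, a membrane-anchored ligand that is shed to attract monocytes, read 8.43, 7.95 and 7.91 in hPTH(1-34) cells, 7.95, 8.03 and 7.33 in bPTH(7-34) cells and 8.21, 7.87 and 7.72 in vehicle cells. Its change with hPTH(1-34) against vehicle was 0.16 (95% interval -0.33 to 0.66), and 0.26 without array 3 of both fragments. Groups overlapped, and bPTH(7-34) array 3 was the lowest.

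The dimmer ligands came next. Ccl17, a ligand of Ccr4, read 2.61, 2.64 and 2.50 in hPTH(1-34) cells, 2.69, 2.75 and 2.91 in bPTH(7-34) cells and 2.54, 2.64 and 2.64 in vehicle cells, with the bPTH(7-34) arrays above all others. Ccl20, a ligand of Ccr6, read 2.71, 1.81 and 2.00 in hPTH(1-34) cells, 1.78, 2.26 and 2.01 in bPTH(7-34) cells and 1.95, 2.45 and 2.00 in vehicle cells. Ccl25, the thymus and gut ligand of Ccr9, read 2.38, 2.41 and 2.18 in hPTH(1-34) cells, 2.24, 2.08 and 2.24 in bPTH(7-34) cells and 2.56, 1.99 and 2.39 in vehicle cells. Groups overlapped for Ccl20 and Ccl25.

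Ccl27a, of the skin ligand family of Ccr10, read 2.49, 2.27 and 2.27 in hPTH(1-34) cells, 2.35, 2.09 and 2.10 in bPTH(7-34) cells and 2.24, 2.52 and 2.29 in vehicle cells. Its cluster gave the same values as clusters annotated with several near-identical copies, so signal of the copies cannot be told apart and this level is uncertain. Its dimmer cluster had a mean of 1.42, under the background limit. Ccl28, another ligand of Ccr10, read 2.04, 1.79 and 1.79 in hPTH(1-34) cells, 1.42, 1.62 and 2.11 in bPTH(7-34) cells and 1.44, 1.94 and 1.79 in vehicle cells. Cxcl17, made by mucosal tissue, read 1.98, 1.89 and 1.91 in hPTH(1-34) cells, 1.89, 1.79 and 1.90 in bPTH(7-34) cells and 1.75, 2.01 and 1.89 in vehicle cells.

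The neutrophil receptors lay near background. Cxcr2 read 2.51, 2.35 and 2.06 in hPTH(1-34) cells, 1.95, 2.19 and 2.07 in bPTH(7-34) cells and 2.19, 2.39 and 2.19 in vehicle cells. Cxcr1 read 1.93, 1.93 and 1.93 in hPTH(1-34) cells, 2.09, 1.70 and 1.95 in bPTH(7-34) cells and 1.81, 1.93 and 1.65 in vehicle cells. Groups overlapped for Cxcr1 and for Cxcr2 between hPTH(1-34) and vehicle.

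**Figure D3:**
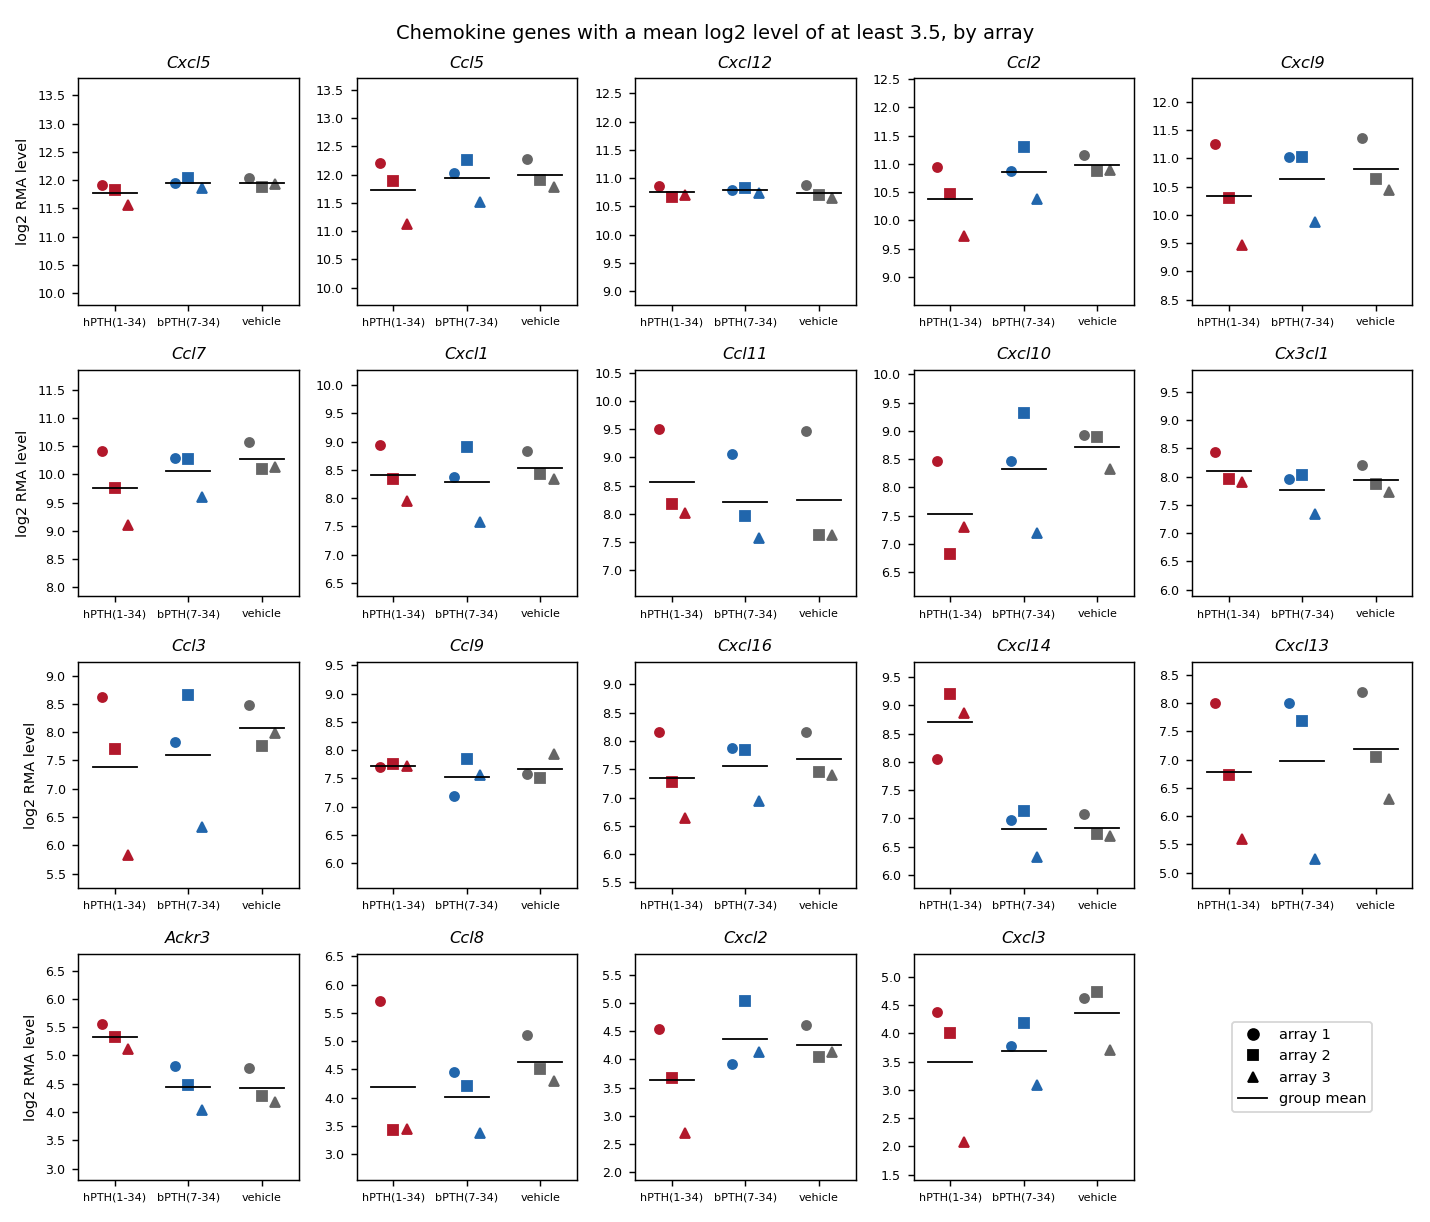
Log2 RMA level of the 19 chemokine genes with a mean of at least 3.5, by group and array (circle, square and triangle for arrays 1, 2 and 3), with bars for the group means; every panel spans the same number of log2 units. For Cxcl14 and Ackr3 the hPTH(1-34) arrays lie above the rest, and for many ligands the triangles of hPTH(1-34) and bPTH(7-34) lie lowest.

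Many ligands shared a pattern across arrays, which was noticed after the values were seen. The part of treatment in this pattern was not tested, and the arrays that were lowest for most ligands both came from cells given a fragment. Of the 18 ligands with a mean of at least 3.5, the lowest of the 9 arrays was hPTH(1-34) array 3 for 9 and bPTH(7-34) array 3 for 6. Cxcl10, Ccl9 and Cxcl12 had their lowest value elsewhere. Array 3 read below array 1 in all 3 groups for 15 of the 18, and for 24.3% of all clusters with a mean of at least 3.5. The median deviation of the 18 ligands from their own means was 0.51, -0.12 and -0.86 in hPTH(1-34) arrays 1, 2 and 3, 0.14, 0.33 and -0.66 in bPTH(7-34) arrays, and 0.54, 0.01 and -0.09 in vehicle arrays. Estimates against vehicle were below 0 for 13 of the 18 with hPTH(1-34), with a median of -0.36, and for 15 of the 18 with bPTH(7-34), with a median of -0.16, where 45.7% and 46.6% of all clusters of that level were below 0. With both of these arrays left out, 8 of 18 were below 0 for hPTH(1-34), with a median of 0.03, and 3 of 18 for bPTH(7-34), with a median of 0.14. The arrays were picked for low readings of these same ligands, so this rise follows from the choice and decides nothing about treatment. The fit without both arrays called 0 chemokine genes. At an unadjusted p under 0.05 it had 3 for hPTH(1-34) against vehicle, Cxcl14, Ackr3 and Ccr7, all higher, where 4.35% of all clusters were. For bPTH(7-34) against vehicle it had 2, Cx3cr1 and Ccr9, both higher, where 2.04% of all clusters were, and Ccr9 lies under the background limit. In that fit Cxcl14 had a change of 1.80 (limma adjusted p = 0.247) for hPTH(1-34) against vehicle, and Ackr3 of 1.03 (adjusted p = 0.284).

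Markers of macrophages and osteoclasts, the resorbing cells of the macrophage lineage, had their lowest medians in the same arrays, but not every marker did so. Of the 15, the lowest of the 9 arrays was hPTH(1-34) array 3 for 8 and bPTH(7-34) array 3 for 2. It was vehicle array 1 for 2, and hPTH(1-34) array 1, hPTH(1-34) array 2 and vehicle array 2 for 1 each. All 15 of 15 such markers lay above the background limit, and limma called 0 of them in any comparison, with 0 at an unadjusted p under 0.05. Their median deviations were 0.67, -0.04 and -0.68 in hPTH(1-34) arrays 1, 2 and 3, 0.09, 0.28 and -0.52 in bPTH(7-34) arrays, and 0.64, -0.28 and 0.07 in vehicle arrays. The summed level of the 15 lay between 8.90 and 9.89 on the log2 scale in hPTH(1-34) cells, 9.02 and 9.75 in bPTH(7-34) cells, and 9.26 and 9.86 in vehicle cells. The macrophage marker Adgre1 read 6.37, 4.83 and 3.78 in hPTH(1-34) cells, 5.33, 5.91 and 3.81 in bPTH(7-34) cells and 6.29, 4.82 and 5.39 in vehicle cells. The part of these markers in the ligand pattern was not tested. In bulk samples fewer cells of a type and less RNA per cell cannot be told apart.

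**Figure D4:**
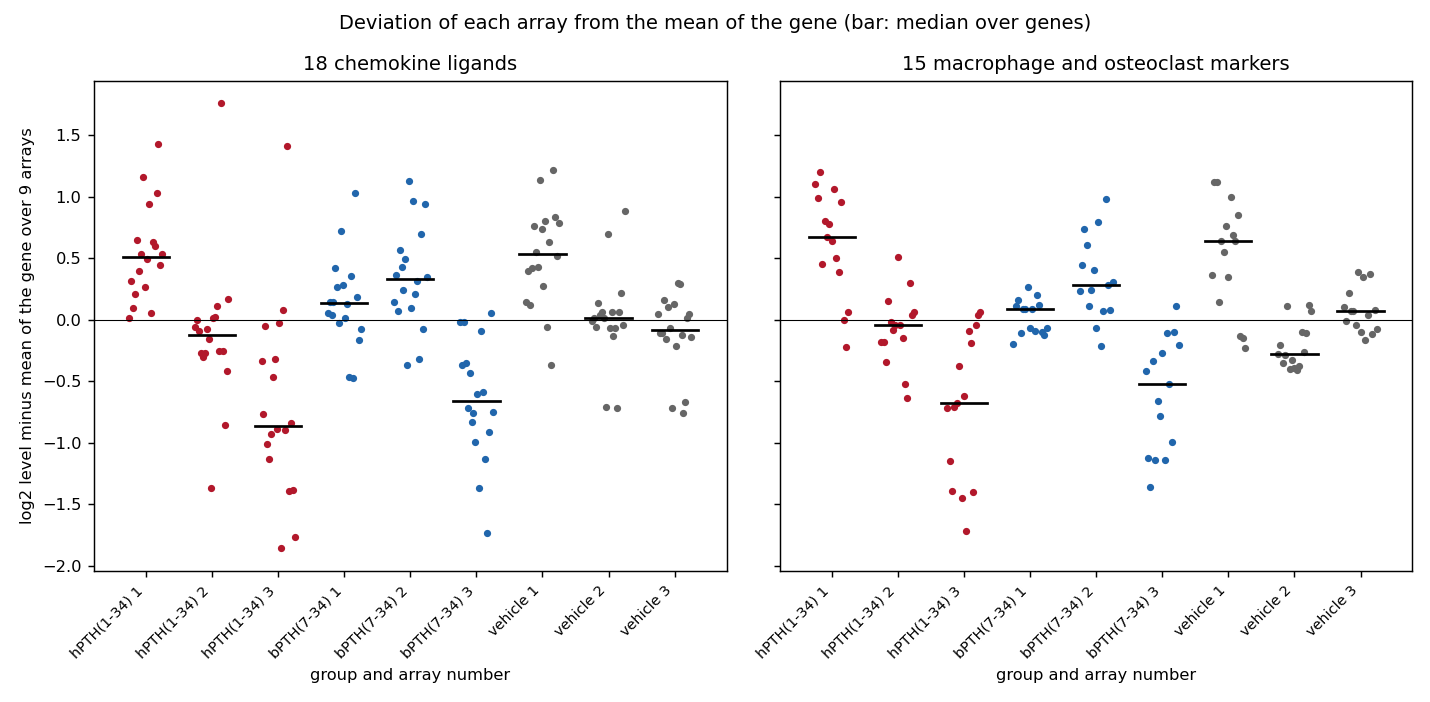
Deviation of each array from a gene's mean over the 9 arrays, in log2 units, for the 18 chemokine ligands with a mean of at least 3.5 (left) and 15 macrophage and osteoclast markers (right), with bars for the median over genes. In both panels hPTH(1-34) array 3 and bPTH(7-34) array 3 have the lowest medians, -0.86 and -0.66 for the ligands and -0.68 and -0.52 for the markers.

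Other cell markers were also read. Osteoblast markers had 7 of 10 measured genes above the limit, with summed levels of 13.28 to 13.59 over the 9 arrays, while Bglap, Sp7 and Dmp1 lay under it. Endothelial markers had 4 of 9 above it (summed levels 4.95 to 5.38), and lymphocyte and granulocyte markers 1 of 11 (4.85 to 5.00). Limma called 0 of these markers in any comparison, and for hPTH(1-34) against vehicle 1 osteoblast and 1 lymphocyte or granulocyte marker had an unadjusted p under 0.05.

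Genes around the chemokine system were counted by list, as a description. For hPTH(1-34) against vehicle, limma called 0 of 13 measured chemokine genes and receptors outside the naming rule, with a median change of -0.06 where all clusters had 0. The smallest p there belonged to Cmklr1, the chemerin receptor, whose mean of 1.38 lies under the background limit, so no size is given for it. It was the 1 gene of the 13 at an unadjusted p under 0.05. Of receptor signalling genes 0 of 25 were called, with a median of -0.04, and of the NF-kB pathway 0 of 18, with a median of -0.07. Gnaq, a G protein subunit, had an estimate of -0.45 (limma adjusted p = 0.41), and Cyld, an NF-kB inhibitor, one of -0.37 (adjusted p = 0.419). At an unadjusted p under 0.05 there was 1 signalling gene and 2 of the NF-kB pathway, all lower, where 3.78% of all clusters were. Of 29 inflammatory cytokines, receptors and adhesion genes 0 were called, with a median of -0.10, and 5 were higher and 2 lower at an unadjusted p under 0.05, where 5.53% and 3.78% of all clusters were. Il17ra, a receptor subunit for interleukin 17, which induces chemokines, had a log2 change of 1.09 ± 0.22 (SE, 95% interval 0.60 to 1.58, limma adjusted p = 0.0836). In the other comparisons limma also called 0 genes of these 4 lists. For bPTH(7-34) against vehicle 1 gene, of those outside the naming rule, was lower at an unadjusted p under 0.05, where 1.45% of all clusters were. For hPTH(1-34) against bPTH(7-34), 2 genes outside the naming rule and 6 inflammatory genes were higher at that p, where 5.3% of all clusters were, and 1 NF-kB and 1 inflammatory gene were lower, where 4.22% were.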

How the data were processed

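Gene expression of 9 samples was measured on Affymetrix Mouse Gene 2.0 ST arrays from 100 ng of RNA. The deposited values are log2 levels, rounded to 2 decimals, and per the submitters' processing notes the authors used RMA in Affymetrix Expression Console. Of 41345 clusters, 23521 carried 1 gene symbol and were tested; the 1814 with several and 16010 with none were not. All 50 genes matched a RefSeq identifier and symbol. Groups were compared by lmFit and eBayes of limma 3.58.1 under R 4.3.3 (group as the only term, 9 arrays, two-sided, Benjamini-Hochberg over all 23521 clusters within a comparison, threshold 0.05). The fit had 6 residual and 3.2 prior degrees of freedom. Errors of changes are SE of the fit. Arrays carry no read depth, so their number limits precision. Plots used matplotlib 3.10.9 in Python 3.11.15.

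Genes above the background limit are named with every array, with full statistics for those called and for the 5 of smallest p in a comparison. The genes and lists were chosen with earlier results of these data known. Alternatives were a block on array number, all clusters, mean level filters, other normalisations, eBayes settings, array weights, 1 cluster per gene, fits on only the 6 arrays compared, and fits without each array in turn. Leaving out both arrays 3 of the fragments was added after seeing the data. On 10 simulated sets with 200 changed clusters each, the test recovered 75.8% of log2 changes of 1 for hPTH(1-34) against vehicle and 24.2% of those of 0.5, and 5.79% of calls were false. These sets had independent noise in each array and changed clusters drawn from all those tested. The rates therefore do not cover variation shared between arrays, or the wider spread of the chemokine ligands.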

Additional observations from a re-analysis of the deposited data

How the results depend on the processing

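Array numbers did not meet the rule used for pairing (each of the 9 correlations of same-numbered deviations over 0.1): these ran from 0.0646 to 0.364, and 6 of 9 were over 0.1. Of the 18 correlations between different numbers 1 was over 0.1. Among clusters with a mean of at least 5, 8 of 9 same-numbered correlations were over 0.1, the highest at 0.601, and 5 of 18 between different numbers. The fit with group as the only term does not account for such shared variation. With the replicate block on array number, hPTH(1-34) against vehicle called 1 gene, Ackr3 (adjusted p = 0.029), with Cxcl14 at 0.0512, hPTH(1-34) against bPTH(7-34) called 2, Cxcl14 and Ackr3 (0.0267), and the 3-group test called 59 clusters. With all clusters of the table tested, 0 chemokine genes were called in any comparison, and 16, 3 and 2 clusters for hPTH(1-34) against vehicle, hPTH(1-34) against bPTH(7-34) and the 3-group test. A mean of at least 5 gave 182, 211 and 170 clusters, with chemokine medians of -0.25, -0.15 (bPTH(7-34) against vehicle) and -0.20. A mean of at least 3 gave 186, 215 and 154, with medians of -0.32, -0.15 and -0.19. Array weights gave 166, 204 and 157. The 6 arrays of a comparison alone called 0 clusters and 0 chemokine genes for hPTH(1-34) against vehicle (limma, 1936 clusters at an unadjusted p under 0.05) and against bPTH(7-34) (2066). Leaving out arrays hPTH(1-34) 3 and bPTH(7-34) 3 called 0 chemokine genes and 1 cluster in each of these 2 comparisons and in the 3-group test. Leaving out 1 array called 0 to 1 chemokine genes in these 3 tests and 0 to 259, 2 to 262 and 2 to 198 clusters, with 0 to 0 for bPTH(7-34) against vehicle; the chemokine medians ran from -0.04 to 0.05, -0.06 to 0.04 (bPTH(7-34) against vehicle) and -0.04 to 0.08. No result changed sign past the threshold. The cause of these differences was not tested. Precision is limited by 3 arrays per group: the median half-width of the 95% interval for ligands with a mean of at least 3.5 was 0.83 on the log2 scale.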

Other observations

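A further 33 clusters carried several gene symbols that included chemokine names, and were not used because no single gene can be named from them. All 33 lay above the background limit, with means over the 9 arrays between 2.29 and 8.06. Clusters with Ccl19 among their symbols had means from 2.70 to 8.06.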
